A study of Mus musculus with 8 samples.

Results

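The clustered histone genes are the histone genes that sit together in 4 clusters of the mouse genome, and 69 genes named for these clusters were found among the 55357 genes in the count table. They were chosen by name alone: every gene whose symbol in GENCODE release M21 begins with Hist1h, Hist2h, Hist3h or Hist4h, with 1 gene named as a pseudogene (-ps) left out. GENCODE types 67 of the 69 as protein coding and 2 of them, Hist1h2aj and Hist1h2al, as pseudogenes, which were kept because their symbols meet the rule. By symbol, the Hist1 cluster on chromosome 13 holds 56 of the genes, Hist2 on chromosome 3 holds 10, Hist3 on chromosome 11 holds 2, and Hist4 on chromosome 6 holds 1. The pseudogene Hist1h2al, at chr13:51202727-51203065, lies apart from the other Hist1 genes. By class there are 6 genes for H1, 20 for H2A, 18 for H2B, 12 for H3 and 13 for H4.

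RNA was sequenced from bone marrow-derived macrophages (BMDM), cells grown from the marrow of wild-type C57BL/6J mice for 5 to 6 days with the growth factor M-CSF. The 4 So(d18:1) libraries came from BMDM given 2 µM sphingosine d18:1 dissolved in methanol for 6 h, and the 4 Control libraries from BMDM given methanol alone for 6 h. The labels name no inflammatory stimulus, whereas the study's text places this experiment under inflammatory stimulation. The study's text calls its sequenced samples biologically independent, and neither it nor the labels say which animals or cultures each library came from. Reads counted on genes numbered 17748397 to 26088609 per library, and the macrophage markers Lyz2 and Csf1r were among the abundant transcripts, with 20699 and 6227 CPM (counts scaled to a common library total) in the Control group. Because these are bulk samples, fewer cells of a type and less RNA per cell cannot be told apart.

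Histones are the proteins that package DNA: the core classes H2A, H2B, H3 and H4 form the particle that DNA winds around, and the linker histone H1 binds where the DNA enters and leaves it. Most genes of the clusters are used in S phase, when new chromatin is assembled, and their mRNAs end in a conserved stem-loop that the protein SLBP binds, in place of a poly(A) tail. Some of these genes also make longer, polyadenylated transcripts in cells that have left the cell cycle. The libraries were made from RNA caught on oligo(dT) beads, a step that retains RNA with a poly(A) tail, so low counts of these genes are not a measure of their stem-loop mRNAs.

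The stem-loop was searched as a pattern in the annotated transcripts after the stop codon, because its place relative to the annotated 3′ end bears on which transcripts oligo(dT) beads can catch. It was found in 46 of the 69 genes, in 8 forms, of which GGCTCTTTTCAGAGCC was held by 26 genes and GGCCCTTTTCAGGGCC by 7. The stem-loops of the 7 tested genes that hold the pattern follow 5′ to 3′ as DNA, with the 16 bases of the stem-loop in capitals and 5 bases on either side in lower case. They were read from the GENCODE M21 transcripts (GRCm38).
Hist1h1c: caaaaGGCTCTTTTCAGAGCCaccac
Hist1h1d: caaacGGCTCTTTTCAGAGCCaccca
Hist3h2a: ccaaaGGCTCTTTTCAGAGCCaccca
Hist1h2ae: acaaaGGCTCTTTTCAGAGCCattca
Hist1h2bg: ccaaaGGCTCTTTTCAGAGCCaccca
Hist1h2be: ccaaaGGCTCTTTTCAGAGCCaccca
Hist1h4i: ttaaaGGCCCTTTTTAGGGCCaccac

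All but Hist1h4i share the same 16 bases. In each of these 7 genes the annotated transcript runs on past the stem-loop, by 151 bases in Hist1h2ae, 155 in Hist1h2bg, 330 in Hist1h4i, 840 in Hist1h1c, 1643 in Hist3h2a, 1861 in Hist1h2be and 4884 in Hist1h1d. Across all 69 genes, 23 run on by at least 100 bases, 23 end closer to the stem-loop than that, and 23 show no stem-loop pattern in their annotated transcripts. A poly(A) signal hexamer (AATAAA or ATTAAA) lies within the last 40 annotated bases of 12, 2 and 3 genes of these groups. Most genes of the group without the pattern have too few annotated bases after the stop codon to hold it. Hist1h4k, for example, has 0 and Hist1h2ah has 2. For such genes the search cannot say whether the mRNA has a stem-loop.

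The promoters of the 2 genes whose level passed the test, Hist1h1c and Hist1h2bg, are shown next as the 250 bases before the RefSeq start site (GRCm38.p6, plus strand). Motifs searched on both strands are in capitals. They are the octamer ATTTGCAT known from H2B promoters, the H1 box with the letters AAACACA, the CCAAT box, and the TATA box with the letters TATAAA. The Hist1h1c window (RefSeq symbol H1f2) is chr13:23738557-23738806, and the Hist1h2bg window (RefSeq symbol H2bc8) is chr13:23571150-23571399.
Hist1h1c: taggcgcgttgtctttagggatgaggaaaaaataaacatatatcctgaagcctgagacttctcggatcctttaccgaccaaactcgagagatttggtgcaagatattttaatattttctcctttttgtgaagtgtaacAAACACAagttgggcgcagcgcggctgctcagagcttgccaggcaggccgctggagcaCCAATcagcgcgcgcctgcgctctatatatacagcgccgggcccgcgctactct
Hist1h2bg: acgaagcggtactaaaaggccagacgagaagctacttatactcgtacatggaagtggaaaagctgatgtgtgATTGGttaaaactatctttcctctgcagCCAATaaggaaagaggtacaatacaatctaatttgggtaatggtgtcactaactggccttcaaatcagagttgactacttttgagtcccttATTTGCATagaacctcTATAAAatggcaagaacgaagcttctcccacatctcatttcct

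The Hist1h1c window holds the H1 box and a CCAAT box, and the Hist1h2bg window holds the octamer, CCAAT on both strands and the TATA box. The octamer occurred in 14 of 63 windows of 62 clustered histone genes (22.2%) against 1.60% of the 32851 windows in the RefSeq table, and all 14 belonged to H2A or H2B genes. The H1 box occurred in 5 of the 6 H1 windows, in 14.3% of the clustered histone windows and in 6.25% of all windows. CCAAT was held by 82.5% of the clustered histone windows against 33.8% of all, and the TATA box by 46.0% against 12.4%. Hist1h2bg and the H2A gene Hist1h2ae lie head to head, so that their windows overlap and share the octamer.

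Few of the clustered histone genes were counted in quantity. All 69 together received 22955 counts in the 8 libraries, between 0.0109% and 0.0168% of a library's counts, and 14 genes had no count in any library (8 H2A, 4 H2B and 2 H3 genes). A count of 0 allows up to 3 counts, which is 0.115 to 0.169 CPM depending on the library and covers counting error only. The 60 genes that did not pass the filter on low counts had a median of 6 counts over all 8 libraries and at most 71 (Hist3h2ba), and 40 of them never exceeded 3 counts in a library. The 9 genes that passed the filter and were tested held 96.9% of the counts: Hist1h1c and Hist1h1d for H1, Hist3h2a and Hist1h2ae for H2A, Hist1h2bc, Hist2h2be, Hist1h2bg and Hist1h2be for H2B, and Hist1h4i for H4. No H3 gene of the clusters passed.

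**Figure D1:**
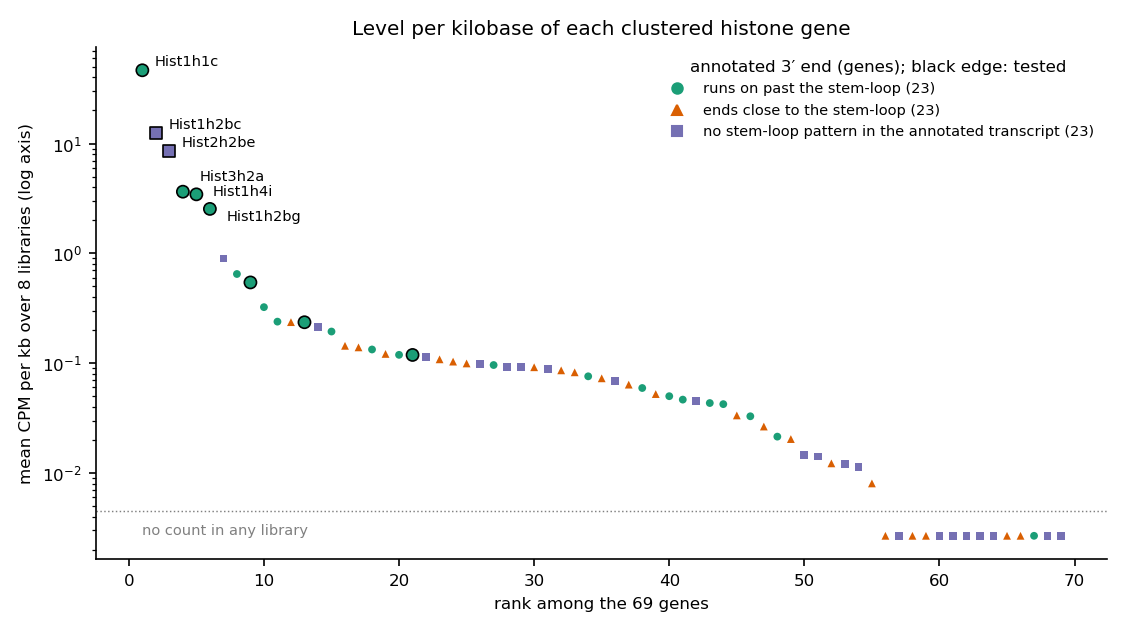
Mean CPM per kilobase of exon over the 8 libraries (log axis) for each of the 69 genes in rank order, with the annotated 3′ end shown by colour and shape and a black edge on the 9 tested genes. Hist1h1c stands at 46.5 CPM per kb, 6 genes lie above 1 CPM per kb, and the 14 genes without a count lie under the dotted line.

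Per kilobase, the linker histone gene Hist1h1c was the most abundant, at 46.5 CPM per kb over all libraries and 57.0% of all clustered histone counts. The H2B genes Hist1h2bc (12.5 CPM per kb) and Hist2h2be (8.51 CPM per kb) followed, then Hist3h2a for H2A (3.64), Hist1h4i for H4 (3.45) and Hist1h2bg for H2B (2.54). The ranges of Hist1h1c, Hist1h2bc and Hist2h2be over the 8 libraries did not meet, whereas Hist3h2a and Hist1h4i, neighbours in the order, differed by less than their spread. The next 6 genes were Hist1h4k (0.897 CPM per kb), Hist3h2ba (0.648), Hist1h2ae (0.543), the H3 genes Hist2h3c2 (0.323) and Hist1h3d (0.239) and the H4 gene Hist1h4h (0.236). Of these 6, only Hist1h2ae was tested.

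Levels differed with the annotated 3′ end, which is given as a description. The 23 genes whose transcripts run on past the stem-loop had a median of 0.119 CPM per kb, and 7 of them were tested. These 23 genes took 70.1% of the counts, but Hist1h1c alone held 57.0% of all clustered histone counts. The 23 that end close to the stem-loop had a median of 0.0636 CPM per kb and a highest level of 0.236 CPM per kb, took 0.588% of the counts, and none was tested. The 23 without the pattern, most of them annotated with too few bases to be searched, had a median of 0.0146 CPM per kb. They took 29.3% of the counts, nearly all of it on Hist1h2bc and Hist2h2be. The annotated Hist1h2bc transcripts include a spliced form of 2 exons, and the single exon of Hist2h2be has a 3′ UTR of 2192 bases with a hexamer near its end.

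The comparison of So(d18:1) with Control libraries asks how the sphingosine treatment changes macrophage transcripts, and here what it does to the clustered histone genes. In edgeR's quasi-likelihood test with Benjamini-Hochberg adjustment over 14514 genes, Hist1h1c and Hist1h2bg fell and no clustered histone gene rose. That is 2 of 9 tested genes lower, beside 5.07% of all tested genes called lower and 3.87% called higher. At an unadjusted p under 0.05, 5 of the 9 were lower, beside 11.9% of all tested genes, and none was higher. DESeq2 and limma-voom also called 2 lower and none higher, beside 5.93% and 5.04% of all tested genes called lower by these tools. All 9 log2 fold changes were below 0, from -0.79 to -0.05 with a median of -0.31, while 49.1% of all tested genes lay below 0 around a median of 0.00361. With no filter on low counts, 28 of 55 clustered histone genes lay below 0. The groups did not overlap for 2 of the 9, beside 7.87% of all tested genes that were lower without overlap. The study's methods count genes changed at least 1.5-fold with an unadjusted p under 0.05, and by this rule 2 of the 9 were lower (Hist1h1d and Hist1h2bg), beside 2.48% of all tested genes.

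**Figure D2:**
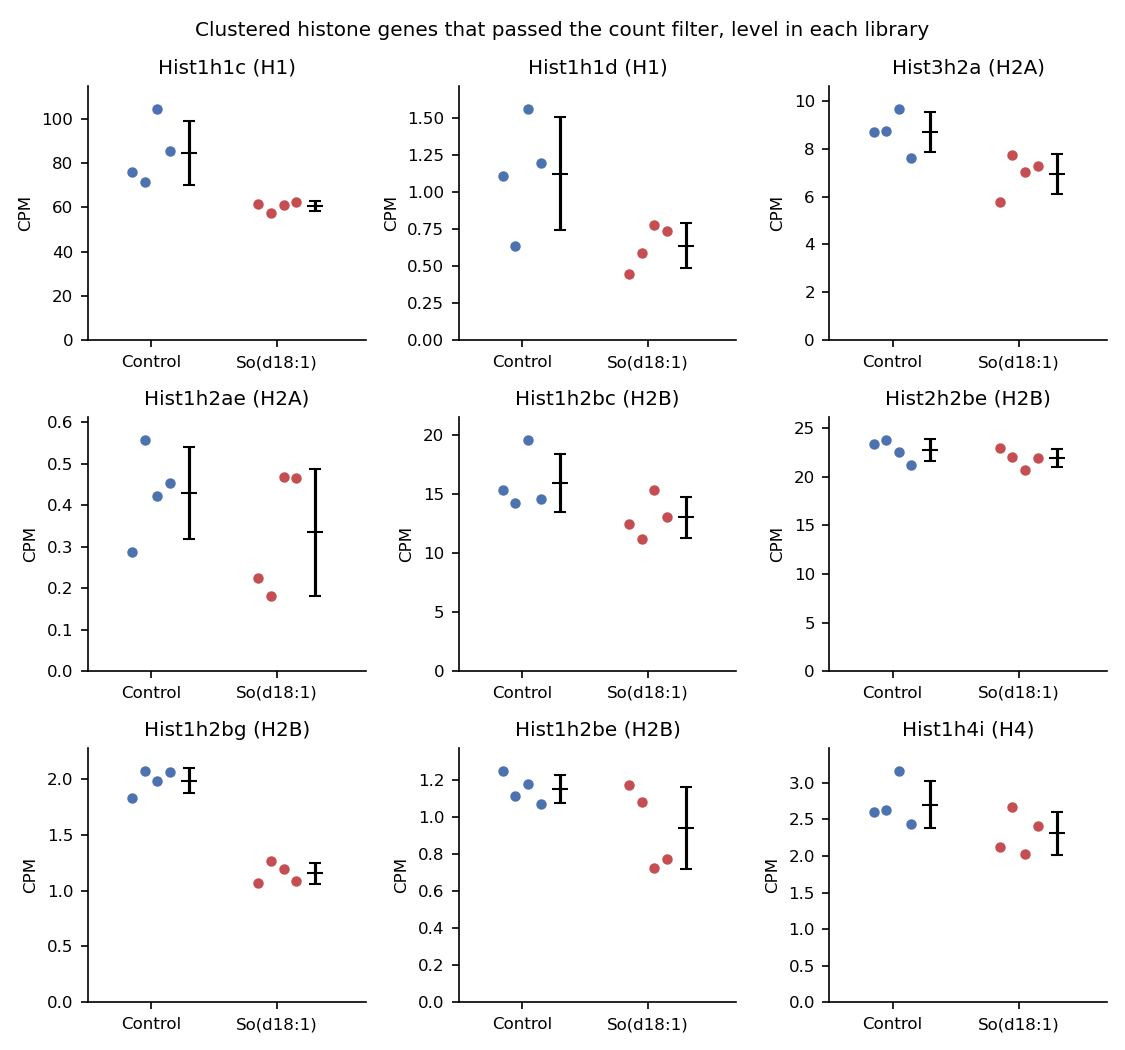
CPM (vertical axes from 0) of the 9 tested clustered histone genes in each Control and So(d18:1) library, with the mean and SD of the 4 libraries as a black bar beside the points. Hist1h1c and Hist1h2bg are the genes whose groups do not meet, with So(d18:1) libraries at 57.5 to 62.3 CPM and 1.06 to 1.27 CPM.

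Hist1h1c, on chr13:23738808-23740367 (GRCm38, plus strand, 1 exon), encodes the H1.2 linker histone. Its counts were 1585, 1802, 2478 and 2072 in the Control libraries and 1099, 1273, 1175 and 1606 in the So(d18:1) libraries, or 76.2, 71.6, 104 and 85.4 CPM against 61.6, 57.5, 61.1 and 62.3 CPM. Every So(d18:1) library lay below every Control library, and the Control libraries were the more spread group. The 4 libraries averaged 84.4 ± 14.5 CPM (SD) without and 60.6 ± 2.11 CPM (SD) with So(d18:1). The gene fell 1.39-fold, with a log2 fold change of -0.48 ± 0.11 (SE, edgeR adjusted p = 0.0274). The two-sided exact permutation test gave p = 0.0286, the smallest that 4 against 4 allows. Only 8.54% of its 50-base words occur in another gene, mostly Hist1h1d. The call was lost when Control replicate 4 (adjusted p = 0.0775) or So(d18:1) replicate 1, 2, 3 or 4 (adjusted p = 0.0594, 0.0713, 0.0614 and 0.0897) was left out. With 1 library left out the log2 fold change lay between -0.55 and -0.36. Over all alternatives adjusted p ran from 6.30e-12 to 0.0897. The lowest came only from edgeR with no filter on low counts, and the next lowest was 9.03e-06 by DESeq2.

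Hist1h2bg, on chr13:23571396-23572013 (plus strand, 1 exon), encodes a core H2B. The Control libraries held 38, 52, 47 and 50 counts and the So(d18:1) libraries 19, 28, 23 and 28, or 1.83, 2.07, 1.98 and 2.06 CPM against 1.06, 1.27, 1.20 and 1.09 CPM. The groups were tight and apart. Control averaged 1.98 ± 0.112 CPM and So(d18:1) 1.15 ± 0.0948 CPM (SD, n = 4 each). This fall was 1.72-fold, with a log2 fold change of -0.78 ± 0.21 (SE, edgeR adjusted p = 0.0219, exact permutation p = 0.0286). Of its 50-base words 49.7% occur in other genes, chiefly Hist1h2bq, and the rule used for reads that match several places is not given in the sources used here, so its count is uncertain. The call was lost if either replicate 4 was omitted, Control (adjusted p = 0.0610) or So(d18:1) (adjusted p = 0.0568), and adjusted p ran from 0.00449 to 0.0610 over all alternatives.

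Hist1h1d, the other tested H1 gene (chr13:23553262-23560686, plus strand), encodes the H1.3 linker histone and lies outside the naming rule. It was chosen after its values were seen, since it completes the tested H1 genes. Its counts were 23, 16, 37 and 29 in Control and 8, 13, 15 and 19 in So(d18:1), so the lowest Control library overlapped the So(d18:1) range. The log2 fold change of -0.79 ± 0.32 (SE) was the furthest from 0 of the 9 and did not pass (adjusted p = 0.128, exact permutation p = 0.0857), except without Control replicate 2 (adjusted p = 0.0460). The remaining H1 genes Hist1h1a, Hist1h1b, Hist1h1e and Hist1h1t were not tested and together held 0.515 ± 0.350 CPM in Control against 0.340 ± 0.0211 CPM in So(d18:1).

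Hist3h2a, the most counted H2A gene (chr11:58954685-58956830, plus strand), stood at 8.70, 8.75, 9.64 and 7.63 CPM in Control against 5.77, 7.73, 7.02 and 7.29 CPM in So(d18:1). So(d18:1) replicate 2 exceeded Control replicate 4, so the groups met. The log2 fold change was -0.31 ± 0.12 (SE) and did not pass (adjusted p = 0.0995, exact permutation p = 0.0571). The gene overlaps exons of Trim17 on the same strand and of Gm44313 on the other, and the strand setting of the counting is not given in the sources used here, so these reads cannot be assigned with certainty. Hist1h2ae, the second tested H2A gene, had 4 to 14 counts per library and a log2 fold change of -0.35 ± 0.42 (SE, adjusted p = 0.667), a precision that leaves the direction undetermined.

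Among the H2B genes, Hist2h2be (chr3:96221119-96223738, plus strand) shares no 50-base word with another gene and was the most evenly counted. Its level was 23.4, 23.7, 22.5 and 21.2 CPM in Control against 23.0, 22.1, 20.7 and 21.9 CPM in So(d18:1), so the groups lay within each other. The log2 fold change was -0.05 ± 0.07 (SE, adjusted p = 0.703, exact permutation p = 0.314). Hist1h2bc (chr13:23684199-23692908, plus strand) stood at 15.3, 14.2, 19.6 and 14.6 CPM in Control against 12.5, 11.2, 15.4 and 13.1 CPM in So(d18:1). So(d18:1) replicate 3 lay above 3 of the Control libraries. The log2 fold change of -0.29 ± 0.11 (SE) did not pass (adjusted p = 0.116, exact permutation p = 0.114), except without So(d18:1) replicate 3 (adjusted p = 0.0499), with no filter on low counts (adjusted p = 0.0397) or with the replicate number as a block (adjusted p = 0.0296). Hist1h2be, also outside the naming rule and given because it completes the tested genes, had 14 to 28 counts per library and a log2 fold change of -0.30 ± 0.26 (SE, adjusted p = 0.534). It overlaps exons of Hist1h1e and Gm11398 on the same strand.

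Hist1h4i (chr13:22040636-22041362, minus strand) was the only tested H4 gene. Its level of 2.60, 2.62, 3.16 and 2.43 CPM in Control overlapped the 2.13, 2.67, 2.03 and 2.40 CPM in So(d18:1). The log2 fold change was -0.22 ± 0.17 (SE, adjusted p = 0.489, exact permutation p = 0.171). Of its 50-base words 28.9% occur in other H4 genes, chiefly Hist1h4n.

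Summed over all 69 genes, the clustered histone transcripts held 134, 129, 169 and 140 CPM in the Control libraries and 112, 108, 113 and 114 CPM in the So(d18:1) libraries. The So(d18:1) libraries were all lower, and Control replicate 3 stood highest. The means were 143 ± 17.9 CPM and 112 ± 2.85 CPM (SD, n = 4 each), a difference of -21.9%, given as a description. Without Hist1h1c the sums were 58.7 ± 4.23 CPM and 51.2 ± 1.03 CPM, a difference of -12.8%. Over the 8 genes that share under 10% of their 50-base words with other genes the difference was -23.0%, from 109 to 83.8 CPM. Hist1h1c made up most of this sum, its mean falling from 84.4 to 60.6 CPM. Most of the remainder was Hist2h2be, at 22.7 CPM without and 21.9 CPM with So(d18:1). The -23.0% thus largely repeats the Hist1h1c difference. By cluster the summed level differed by -26.1% for Hist1 (111 ± 17.7 CPM to 81.7 ± 3.42 CPM). Most of the Hist1 sum and of its difference was Hist1h1c (84.4 CPM to 60.6 CPM). For Hist2 the difference was -3.73% (23.4 ± 1.06 CPM to 22.5 ± 1.19 CPM), in a sum that is almost wholly Hist2h2be.

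**Figure D3:**
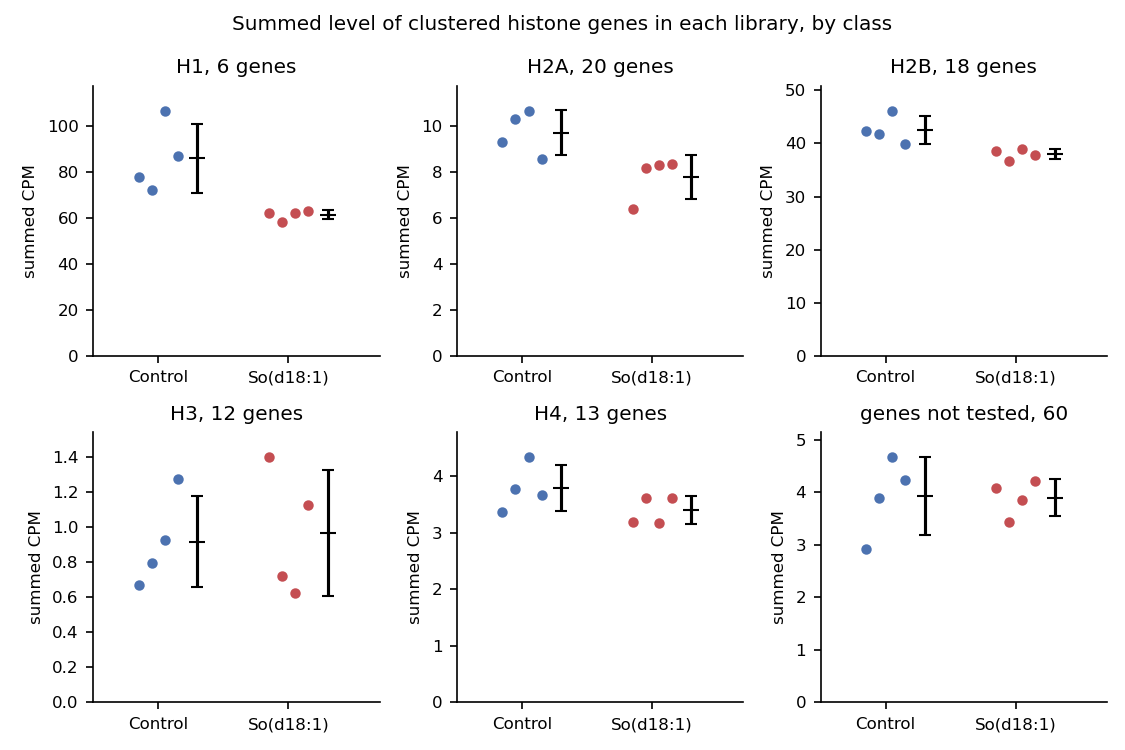
Summed CPM (vertical axes from 0) of the clustered histone genes of each class, and of the 60 genes not tested, in each Control and So(d18:1) library, with the mean and SD of 4 libraries beside the points. The H1 sum is 72.5 to 107 CPM in Control against 58.5 to 63.3 CPM in So(d18:1), while the H3 sums and those of the genes not tested overlap.

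By class, H1 accounted for most of the level and of the difference, with 86.0 ± 15.2 CPM in Control against 61.6 ± 2.14 CPM in So(d18:1) (-28.4%). Nearly all of the H1 sum was Hist1h1c, at 84.4 CPM and 60.6 CPM. Most of the H2A sum was Hist3h2a, at 8.68 CPM and 6.95 CPM, whose reads cannot be assigned with certainty. H2A went from 9.73 ± 0.967 CPM to 7.82 ± 0.957 CPM (-19.7%), H2B from 42.6 ± 2.66 CPM to 38.0 ± 0.984 CPM (-10.7%) and H4 from 3.79 ± 0.406 CPM to 3.40 ± 0.247 CPM (-10.3%). The 12 H3 genes together held 0.918 ± 0.261 CPM in Control against 0.968 ± 0.360 CPM in So(d18:1), a difference well inside the spread. The groups did not meet for H1 and H2B, and overlapped for H3 and H4. For H2A the lowest Control library (8.57 CPM) lay just above the highest So(d18:1) library (8.37 CPM). The 60 genes not tested held 2.93, 3.90, 4.67 and 4.25 CPM in Control against 4.09, 3.43, 3.85 and 4.23 CPM in So(d18:1), so no difference was detectable in them at this depth.

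Histone variants also come from single genes outside the clusters, and most of these genes make mRNAs with a poly(A) tail. Of 11 such genes tested, 3 rose and none fell, beside 8.94% of all tested genes called in either direction. H2afy, which encodes macroH2A, rose from 143, 138, 139 and 143 CPM to 171, 165, 167 and 175 CPM (log2 fold change 0.27 ± 0.04 SE, edgeR adjusted p = 0.000182). H2afx, the histone phosphorylated at DNA breaks, rose by 0.42 ± 0.11 (SE) on the log2 scale (adjusted p = 0.0169), a call lost without So(d18:1) replicate 2 or 4 (adjusted p up to 0.0699). H2afv, which encodes an H2A.Z form, rose by 0.29 ± 0.08 (SE, adjusted p = 0.0280), a call lost without Control replicate 2, 3 or 4 or So(d18:1) replicate 1, 2 or 4, with adjusted p up to 0.114. The H3.3 genes H3f3a and H3f3b, at 167 and 132 CPM per kb the highest of the histone genes, had log2 fold changes of 0.04 ± 0.04 and -0.02 ± 0.05 (SE). H2afz (0.14), H2afj (0.09), Cenpa (-0.13), H2afy2 (-0.29) and H1fx (0.69, adjusted p = 0.0942) did not pass either.

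H1f0, the linker histone gene typical of cells at rest, was as abundant per kilobase as Hist1h1c, at 46.0 against 46.5 CPM per kb. Its level of 90.5, 102, 102 and 91.3 CPM in Control against 87.5, 94.4, 96.8 and 91.1 CPM in So(d18:1) overlapped between the groups (log2 fold change -0.06 ± 0.05 SE, adjusted p = 0.517). The log2 ratio of Hist1h1c to H1f0, formed after the values were seen and given with no test, was -0.21 ± 0.23 in Control and -0.61 ± 0.10 in So(d18:1) (SD, n = 4 each).

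Genes whose products make and trim histone mRNA were tested as a list. Of 23 genes, 0 passed in edgeR, DESeq2 and limma-voom, and 2 (Npat and Tut4) had an unadjusted p under 0.05, beside 23.4% of all tested genes. Slbp, whose protein binds the stem-loop, stood at 33.2 ± 2.39 CPM in Control against 35.9 ± 1.89 CPM in So(d18:1) (log2 fold change 0.11 ± 0.06 SE, adjusted p = 0.320). Npat, the coactivator of the clusters, went from 43.4 ± 1.71 CPM to 39.6 ± 2.62 CPM (-0.13 ± 0.06 SE, adjusted p = 0.180). Casp8ap2 (0.01), E2f1 (0.02), Lsm10 (0.02), Lsm11 (0.07), Zfp473 (0.39) and the histone mRNA exonuclease gene Eri1 (-0.05) had log2 fold changes with adjusted p of 0.512 or more, and the sign for Casp8ap2 turned with upper quartile scaling. The 26 genes for histone chaperones and the acetyltransferase Hat1 had log2 fold changes from -0.16 to 0.21, and 0 passed in the 3 tools, with 3 (Supt16, Set and Hjurp) at an unadjusted p under 0.05 beside the same 23.4%.

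**Figure D4:**
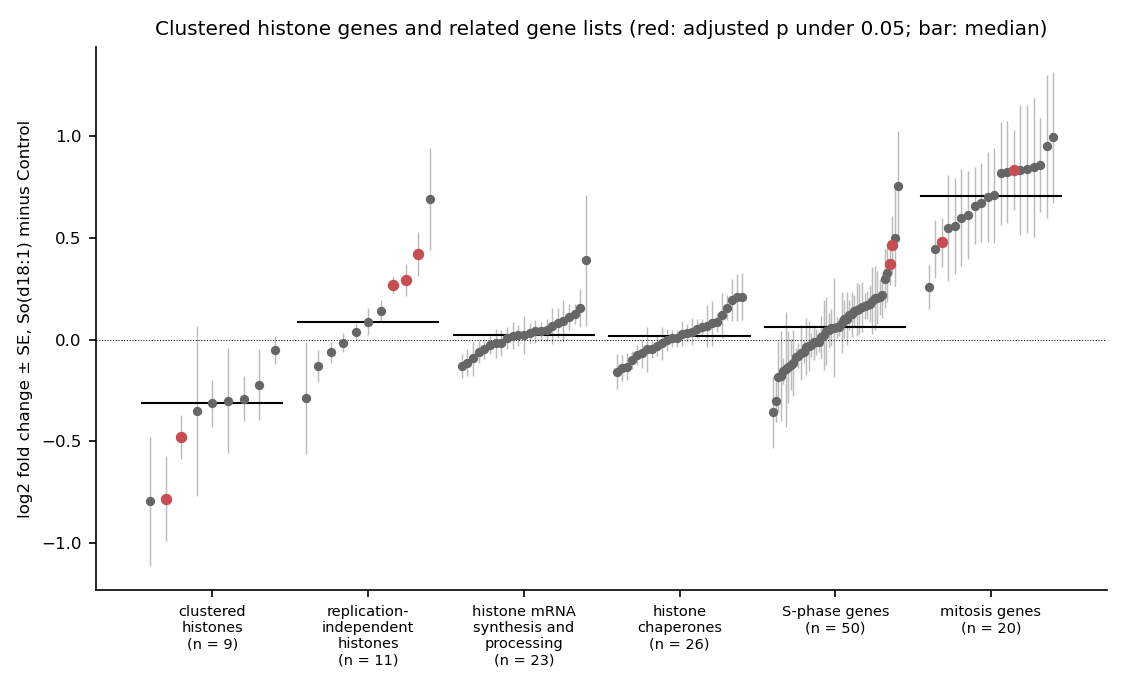
Log2 fold change with its SE, So(d18:1) minus Control, for the tested genes of each list, sorted within the list, with red for an adjusted p under 0.05 and a black bar at the median. The 9 clustered histone genes all lie below 0 with a median of -0.31, and the medians of the other lists run from 0.02 to 0.70.

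Because clustered histones are made in S phase, genes of DNA replication and of mitosis were set beside them. Of 50 S-phase genes 2 rose and none fell, a share near the 3.87% of all tested genes called higher, and the median log2 fold change was 0.06. These were Mcm10 (0.46 ± 0.14 SE, adjusted p = 0.0437) and Rpa2 (0.37 ± 0.10 SE, adjusted p = 0.0260), and Lig1 (0.16) and Mcm3 (-0.30) followed by p without passing. Of 20 mitosis genes all had a positive log2 fold change, with a median of 0.70, and 2 rose, beside the same 3.87%: Cdc20 (0.83 ± 0.20 SE, adjusted p = 0.0269) and Aurkb (0.48 ± 0.12 SE, adjusted p = 0.0174). At an unadjusted edgeR p under 0.05, 18 of the 20 were higher, beside 1659 of all 14514 tested genes higher and 23.4% in either direction. The mitosis genes summed to 399 to 591 CPM in Control against 626 to 1001 CPM in So(d18:1), so the groups did not meet. Over the fits that left out 1 library, adjusted p reached 0.171 for Mcm10 (called in 2 of 8), 0.112 for Rpa2 (4 of 8), 0.108 for Cdc20 (5 of 8) and 0.0665 for Aurkb (4 of 8). Among the other mitosis genes Bub1 came next (0.66 ± 0.19 SE, adjusted p = 0.0582). The mitosis count depended on the test, with 11 called higher by DESeq2 (beside 4.38% of all tested genes) and 18 by limma-voom (beside 3.98%), and in edgeR it was 0 without Control replicate 3 or 4, 1 without So(d18:1) replicate 4, 4 without So(d18:1) replicate 3 and 6 without So(d18:1) replicate 2. The S-phase count was 0 without Control replicate 4 and 1 without any other single library except Control replicate 2, where 3 were called and 1 of them was higher.

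Markers of other cell types that marrow cultures can hold were measured in the same libraries. The summed level of 10 neutrophil markers was 1755 to 2385 CPM in Control against 1493 to 1649 CPM in So(d18:1). In edgeR 4 were called lower and 1 (Mmp8) higher, beside 5.07% and 3.87% of all tested genes. DESeq2 and limma-voom each called 8 of the 10 in either direction, and all 10 had an unadjusted edgeR p under 0.05. Of 6 markers of dividing progenitors 2 (Myb and Sox4) were called lower, beside the same 5.07%. The sum of the 6 was 27.4 to 36.6 CPM against 20.3 to 24.4 CPM. Of 10 macrophage markers 2 (Cd68 and Mertk) were called lower and 1 (Itgam) higher, and the sums overlapped. DESeq2 and limma-voom each called 4 of the macrophage markers. For the 6 B cell markers, 1 of which (Pax5) was called lower, the sums of 119 to 144 CPM and 99.4 to 126 CPM overlapped. The T cell receptor genes Cd3e, Cd3d, Cd3g and Trac were at or near 0 and were not tested, whereas Cd4, which macrophages can also express, was called lower (22.8 against 17.0 CPM). Of 6 dendritic cell and 6 stroma markers, 5 and 4 were tested and 0 passed in edgeR, DESeq2 or limma-voom, with 1 of each (Flt3 and Col1a2) at an unadjusted p under 0.05. Not tested either were the 6 erythroid markers, which summed to 0.954 to 1.25 CPM in Control against 0.672 to 1.36 CPM in So(d18:1). The neutrophil and progenitor sums were lower in every So(d18:1) library, as the Hist1h1c level was, and Control replicate 3 held the highest Hist1h1c and neutrophil sums. Their part in the histone result was not tested.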

How the data were processed

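Cultured BMDM received So(d18:1) or its methanol vehicle, and polyA RNA of 4 libraries per group was sequenced. As named in the submitters' processing notes, the tools were Trim Galore 0.6.7 for trimming, HISAT2 2.2.1 for alignment to the mm10 build and featureCounts 2.0.1 for counting. The authors deposited read counts as whole numbers for each Ensembl gene in each library, without normalization, beside a gene length. The strand setting and the rule for reads that match several places are not given in the sources used here. Library totals lay between 17748397 and 26088609, and the 4 libraries per group set the precision.

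Symbols and transcripts were taken from GENCODE M21 (GRCm38), and promoters from the RefSeq table (GRCm38.p6), matched by older symbol and position for 69 of 69 genes, of which 62 had a promoter entry. The count model was edgeR 4.0.16 (R 4.3.3): filterByExpr kept 14514 genes, TMM gave the scaling (factors 0.989 to 1.01), and groups were compared with a robust quasi-likelihood F test, with Benjamini-Hochberg adjustment over all tested genes and a threshold of 0.05. Standard errors were derived from the log2 fold change and its F statistic. CPM are counts scaled to a common total with the TMM factors, and CPM per kb are divided by the deposited gene length. Single genes were also compared by a two-sided exact permutation test of CPM. Fold changes are So(d18:1) over Control.

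Shared sequence is the percent of a gene's 50-base words that occur in transcripts of another gene, on either strand. Named were the genes with an adjusted p under 0.05, the 12 with the highest CPM per kb, the tested gene of smallest p in each class, and, of the other lists, 8 set genes of histone mRNA processing, all tested variants, called chaperones, and the 4 S-phase and 3 mitosis genes of smallest p. The clustered histone genes, the lists and the tests were chosen with earlier results of these data known. The alternatives were other scalings and filters, the replicate number as a block, the DESeq2 1.42.0 Wald test, the likelihood ratio test, limma-voom (limma 3.58.1), the study's call rule, counts drawn down to the smallest library, and each library left out in turn. Protein sequences were not analysed here. Plots used matplotlib 3.10.9 (Python 3.11.15).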

Additional observations from a re-analysis of the deposited data

Results flagged for a closer look

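Among 45 reported levels checked in both groups (90 groups of 4), 3 held a library whose gap to the others passed Dixon's 95% limit, where chance flags about 1 in 20 groups. The summed level of the H2A genes was 6.39 CPM in So(d18:1) replicate 1 against 8.18 to 8.37 CPM in the other So(d18:1) libraries. Hist3h2ba, an untested H2B gene, stood at 0.618 CPM in Control replicate 4 against 0.239 to 0.288 CPM in the other Control libraries, on counts of 15 against 6 in each of the others. The H2A.Z-type gene H2afv stood at 31.4 CPM in Control replicate 1 against 27.2 to 27.9 CPM in the other Control libraries, and without that library its rise was still called.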

How the results depend on the processing

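No clustered histone gene was called higher under any of the 19 alternatives, and 2 or 3 were called lower under all but 4 of them. Leaving out 1 library gave 0 to 3 called lower: 0 without Control replicate 4 or So(d18:1) replicate 4, and 1 without So(d18:1) replicate 1 or 2. The median log2 fold change of the tested genes was -0.048 with no filter on low counts, where 55 clustered genes were tested, and lay between -0.37 and -0.26 with 1 library left out. The log2 ratio of the summed level was -0.36, -0.20 without the most abundant gene, Hist1h1c, and -0.40 to -0.27 with 1 library left out, an alternative chosen after seeing the data. No named clustered histone gene reversed its direction. Among the other named genes, signs near 0 turned. Casp8ap2 had a log2 fold change of -0.0065 with upper quartile scaling, -0.00032 with at least 10 counts in every library, and -0.017 to 0.031 with 1 library left out. Lsm10 had -0.0011 with counts drawn down and -0.036 to 0.11 with 1 library left out, E2f1 -0.0034 to 0.050 and H3f3b -0.042 to 0.023. Of 18 alternatives, H2afz and Cenpa passed under 1 each, Mcm3 under 5 and Bub1 under 7.

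Over all tested genes, same-numbered libraries showed little correlation in their deviations from the group means (-0.0035, 0.10, 0.033 and 0.0090). Libraries of unlike number were not compared, so these values do not settle whether the numbers pair the libraries. The mitosis sum was highest in replicate 2 (591 CPM in Control, 1001 CPM in So(d18:1)) and lowest in replicate 3 (399 and 626 CPM) of both groups. With the replicate block, Hist1h2bc was also called lower (edgeR adjusted p = 0.0296). The called genes were then 3 of the clustered histones, 4 of the S-phase list (3 of them higher), 19 of the mitosis list and 1 chaperone (Hjurp, higher). The cause was not tested.

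In the other lists, calls were counted in both directions. The count for the histone genes outside the clusters was 1 under the study's call rule and 1 to 3 with 1 library left out. The chaperone count was 1 (Hjurp) with no filter, and 0 to 1 with 1 library left out. The S-phase count was 1 with upper quartile scaling, with counts drawn down and under the study's call rule, 4 by the likelihood ratio test (3 of them higher), and 0 to 3 with 1 library left out. The mitosis count was 8 with no filter, 11 by DESeq2, 12 by the likelihood ratio test, 18 by limma-voom, 15 under the study's call rule, and 0 to 6 with 1 library left out. The cause of these shifts was not tested. Depth limits the 60 clustered histone genes that could not be tested, and oligo(dT) selection limits all values to polyadenylated or otherwise captured transcripts.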

Other observations

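Other short RNAs that lack a poly(A) tail were also counted at low levels in these libraries. Of 7 such genes looked for by name and found, 3 (Rmrp, Rpph1 and Rnu11) had no count in any library, and the single tested one, Rnu73b, went from 0.584 to 0.427 CPM on average without passing the test (adjusted p = 0.503). The genes typed as small nuclear RNA summed to 17.2 to 20.3 CPM in Control against 14.2 to 19.6 CPM in So(d18:1), and those typed as small nucleolar RNA to 31.7 to 34.7 CPM and 26.6 to 35.1 CPM. Both ranges overlapped between the groups, and the counts can include reads of host genes. Within the clustered histone genes that were not tested, the H2B genes summed to 0.795 ± 0.120 CPM in Control against 0.973 ± 0.106 CPM in So(d18:1), and the H4 genes to 1.08 ± 0.213 CPM and 1.09 ± 0.109 CPM (SD, n = 4 each), values given with no test.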
